A study of Rattus norvegicus with 16 samples.

Results

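The expression of 8 proteoglycan and matrix protein genes was followed in the rat left ventricle (LV) during volume overload (VO): biglycan (Bgn), decorin (Dcn), lumican (Lum), fibromodulin (Fmod), prolargin (Prelp), osteoglycin (Ogn), versican (Vcan) and cartilage oligomeric matrix protein (Comp). A probe set was taken when its annotation gave exactly 1 gene symbol and that symbol was one of these, which selected 15 of 31042 probe sets, and 8 of the 14217 genes named in this way. All animals were adult male Sprague-Dawley rats. The study compared 4 control rats with 4 rats each at 8, 16 and 24 weeks after surgical creation of an aortocaval fistula (ACF), a connection between the abdominal aorta and the inferior vena cava that overloads the heart with returning blood. Each sample was 1 array of whole LV tissue, 16 in all, and was taken to be a separate rat, which the labels do not state. The control samples are titled baseline while the design text calls them sham, and if they were taken at baseline, age and surgery cannot be told apart from ACF. The 24-week arrays carry 24, 25, 26 and 27 weeks in their descriptions.

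Small leucine-rich proteoglycans are secreted proteins whose leucine-rich repeats bind collagen and control how fibrils grow and pack. Decorin and biglycan form class I and carry chondroitin or dermatan sulfate chains, lumican, fibromodulin and prolargin belong to class II, and osteoglycin to class III. Versican is a large chondroitin sulfate proteoglycan that binds hyaluronan and fills the provisional matrix of injured or developing tissue. Comp belongs to the thrombospondin family and is no leucine-rich protein, but it too binds collagen fibrils. In the heart these proteins come mostly from fibroblasts and other interstitial cells.

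Values below are log2 intensities of a probe set relative to the median probe set of the same array, so that 0 is the array median and a difference of 1 is a 2-fold difference. The deposited array medians lay at 2 levels, between 6.13 and 6.17 on 9 arrays and between 5.92 and 5.96 on 7. All 4 control arrays lay at the higher level, 3 of the 8-week and 2 of the 16-week arrays did too, and all 4 of the 24-week arrays lay at the lower one, where level and group cannot be told apart. Without centring, all differences from control were lower by 0.06 at 8 weeks, by 0.12 at 16 weeks and by 0.21 at 24 weeks. The mean of 9 measured ventricular cardiomyocyte markers lay between 7.46 and 7.90 on every array. The mean of 3 measured atrial markers ranged from -0.18 to 4.15 among controls, and from 0.13 to 5.06, 0.42 to 2.71 and 0.98 to 5.60 at 8, 16 and 24 weeks. The control array of replicate 4 had the highest atrial value of the controls, and was also the highest control for 7 of the 8 genes, whereas 23.3% of all probe sets had their highest control value there.

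At 16 weeks, Vcan was 3.01-fold and Dcn 1.41-fold higher than in control. These 2 of 8 genes passed the test (limma, adjusted p under 0.05), beside 5.47% of all probe sets in either direction and 3.62% upward. Such shares cover all probe sets, dim and unnamed ones included, while a member is counted once as a gene. In a fit with 1 probe set per gene, 1292 of 14217 genes passed at 16 weeks in either direction. Of all probe sets 1123 were higher and 575 lower at 16 weeks, and without centring 462 and 1259. None of the 8 passed at 8 weeks, when 0.0322% of all probe sets did, or at 24 weeks, when 0.438% did (84 higher and 52 lower, and 145 and 3694 without centring). At an unadjusted p under 0.05 there were 1, 4 and 5 of 8 genes at 8, 16 and 24 weeks, beside 6.2%, 19.5% and 15.4% of all probe sets. Over the 8 genes the median differences from control were 0.08, 0.45 and 0.29 at 8, 16 and 24 weeks, whereas the median over all genes lay within 0.01 of 0 at each time. Between time points no member passed the test: 0% of all probe sets did between 16 and 8 weeks, 0.0129% between 24 and 16 weeks, and 0% between 24 and 8 weeks. In the comparison of 16 with 8 weeks, 3 of 8 genes had an unadjusted p under 0.05, beside 7.07% of all probe sets, as did 2 of 8 between 24 and 16 weeks, beside 7.81%, and 0 of 8 between 24 and 8 weeks, beside 6.24%. In whole tissue, fewer cells of a type and less RNA per cell cannot be told apart, and the same holds for more of either.

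**Figure D1:**
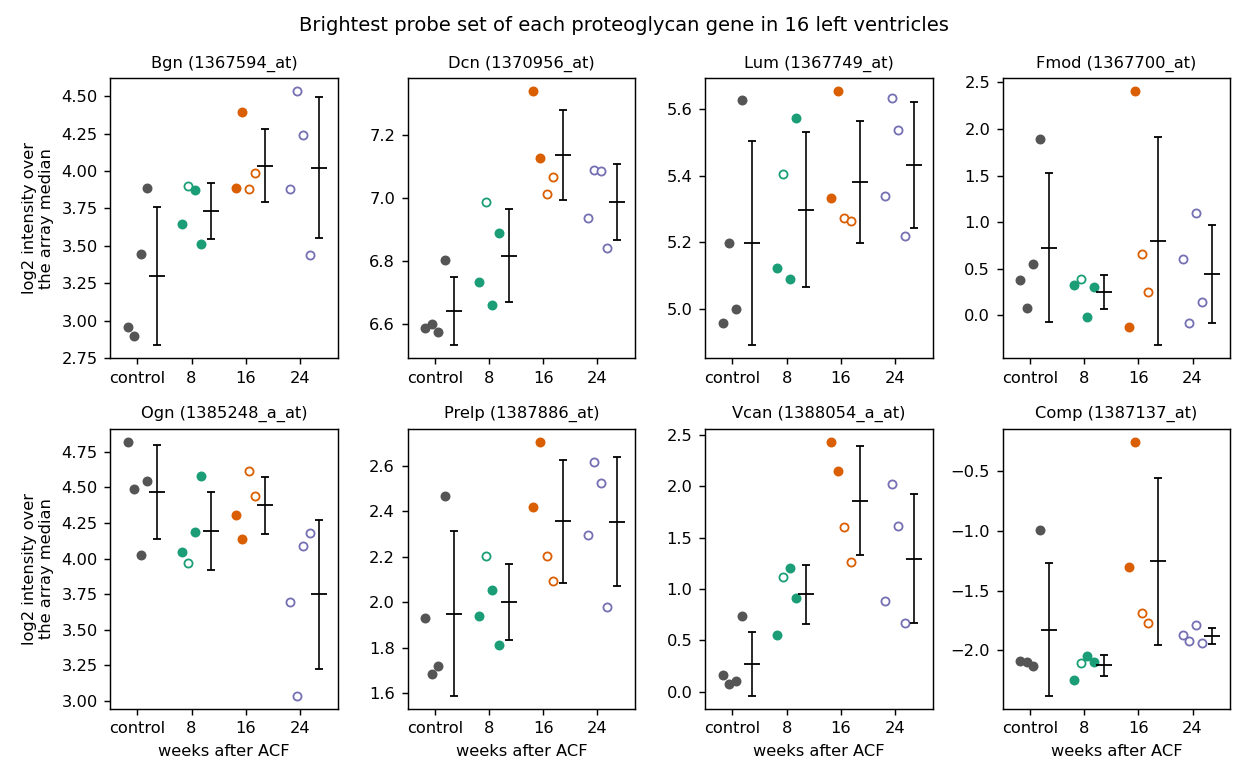
Log2 intensity over the array median of the brightest probe set of each gene, per array, by weeks after ACF. Filled circles are arrays at the higher level of the array median and open circles those at the lower level, and bars are the mean and SD of 4 arrays. All 4 arrays at 16 weeks lie above all controls for Dcn and Vcan, as they do for 7.65% of all probe sets. The fourth control array is the highest control in every panel but that of Ogn.

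**Figure D2:**
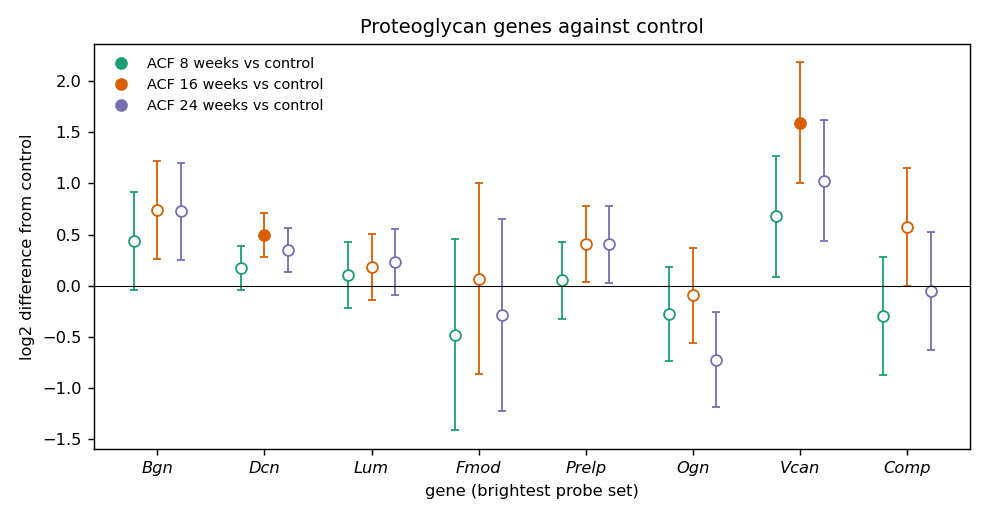
Log2 difference from control of each gene's brightest probe set at 8, 16 and 24 weeks, with 95% confidence intervals of the limma fit on 16 arrays. Filled circles passed at an adjusted p under 0.05, which Dcn and Vcan did at 16 weeks, and open circles did not.

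Decorin, the class I proteoglycan named for decorating collagen fibrils, was measured by 1 probe set (1370956_at). Its values in the control arrays were 6.58, 6.60, 6.57 and 6.80. At 8 weeks they were 6.73, 6.99, 6.66 and 6.89, and at 16 weeks 7.34, 7.13, 7.01 and 7.07. At 24 weeks they were 6.94, 7.09, 7.09 and 6.84. All arrays at 16 and at 24 weeks lay above every control, a separation upward that 7.65% and 4.32% of all probe sets showed at these times. The 8-week arrays overlapped with the controls, and 2 of 4 lay above all of them. Dcn differed from control by 0.18 at 8 weeks (limma, adjusted p = 0.902), 0.50 at 16 weeks (SE 0.10, adjusted p = 0.00989) and 0.35 at 24 weeks (adjusted p = 0.122). At 16 weeks every array also lay above every 8-week array, with a difference of 0.32, which did not pass over all probe sets (adjusted p = 0.490). Such a separation upward was found for 2.26% of all probe sets. Without the fourth control array the Dcn difference at 16 weeks was 0.55 (adjusted p = 0.0105), and without centring it was 0.38 (adjusted p = 0.0697), which ended the call.

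Biglycan, the other class I member, binds collagen and, as a soluble fragment, toll-like receptors. Its probe set (1367594_at) gave 2.96, 2.90, 3.44 and 3.88 in control arrays and 3.65, 3.90, 3.87 and 3.51 at 8 weeks. The values were 3.88, 4.40, 3.88 and 3.98 at 16 weeks, and 3.88, 4.53, 4.24 and 3.44 at 24 weeks. The fourth control array overlapped with every ACF group, and the other 3 controls lay below all arrays at 8 and 16 weeks. Bgn differed from control by 0.44 at 8 weeks (95% interval -0.04 to 0.91, adjusted p = 0.856). It was 0.74 at 16 weeks (SE 0.23, adjusted p = 0.0652) and 0.73 at 24 weeks (adjusted p = 0.138). Without the fourth control array it was 0.94 at 16 weeks and passed (limma, adjusted p = 0.0215). Without the first or the second control array it was 0.63 and 0.61 (adjusted p = 0.192 and 0.182). Leaving out the second 16-week array gave 0.62 (adjusted p = 0.175).

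Within each array, the Bgn value minus the Dcn value compares the changes of the class I pair, and does not depend on centring. The mean of this difference was -3.34 in control and -3.08, -3.10 and -2.97 at 8, 16 and 24 weeks. Its change from control was 0.26, 0.24 and 0.38, with exact two-sided permutation p values of 0.257, 0.314 and 0.171. Of 6 such tests, which include the class II pair below, none passed after adjustment (0.377 for each of these 3). The smallest p this test can give is 0.0286, so these 3 tests could not have passed over 6 on their own. Nothing is therefore concluded on whether Bgn and Dcn changed differently.

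Lumican, a class II keratan sulfate proteoglycan of collagen-rich tissues, had control values of 4.96, 5.20, 5.0 and 5.63 (1367749_at). The values were 5.12, 5.41, 5.09 and 5.57 at 8 weeks, 5.33, 5.65, 5.27 and 5.26 at 16 weeks, and 5.34, 5.63, 5.54 and 5.22 at 24 weeks. All groups overlapped, with the fourth control array among the highest of all. Lum differed from control by 0.10 at 8 weeks, 0.18 at 16 weeks (95% interval -0.14 to 0.51, limma, adjusted p = 0.559) and 0.24 at 24 weeks (adjusted p = 0.484). Without the fourth control array these were 0.24, 0.33 and 0.38, and none passed (adjusted p = 0.864, 0.224 and 0.217). The lowest values over all fits without 1 array were 0.01, 0.09 and 0.16.

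Prolargin, a class II member that anchors basement membranes to connective tissue, gave 1.93, 1.68, 1.72 and 2.47 in control arrays (1387886_at). The values were 1.94, 2.21, 2.05 and 1.81 at 8 weeks, 2.42, 2.71, 2.20 and 2.09 at 16 weeks, and 2.30, 2.62, 2.53 and 1.98 at 24 weeks. The first 3 controls lay below every array at 16 and 24 weeks, and the fourth lay among them. The difference from control was 0.05 at 8 weeks and 0.41 at both later times (limma, adjusted p = 0.212 and 0.286). Without the fourth control array it was 0.58 at 16 weeks (adjusted p = 0.0537). Over all fits without 1 array it ranged from 0.29 to 0.58 at this time.

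Fibromodulin, a class II member that takes part in collagen cross-linking, varied more within groups than between them. Its values were 0.38, 0.08, 0.55 and 1.90 in control arrays and 0.32, 0.38, -0.02 and 0.31 at 8 weeks (1367700_at). They were -0.13, 2.41, 0.66 and 0.25 at 16 weeks, and 0.61, -0.08, 1.10 and 0.14 at 24 weeks. Single arrays stood out, the fourth control and the second at 16 weeks, and the groups overlapped throughout. The differences from control of -0.48, 0.07 and -0.28 at 8, 16 and 24 weeks had standard errors of 0.44, and none passed (limma, adjusted p = 0.979, 0.959 and 0.810). The direction at 16 weeks turned with single arrays: without the second 16-week array the difference was -0.47. The Fmod value minus the Lum value, the change within the class II pair, differed from control by -0.58, -0.11 and -0.52, with exact two-sided permutation p values of 0.114, 0.83 and 0.286 (adjusted over the 6 tests, 0.377, 0.83 and 0.377).

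Comp was below the array median on all 16 arrays, and its highest values came from the same arrays as those of Fmod. Control arrays gave -2.09, -2.10, -2.13 and -0.99, and those at 8 weeks -2.25, -2.11, -2.05 and -2.10 (1387137_at). The values were -1.30, -0.25, -1.69 and -1.77 at 16 weeks, and -1.87, -1.92, -1.78 and -1.94 at 24 weeks. Apart from the fourth control array, all 16-week arrays lay above all controls, above all 8-week and above all 24-week arrays. The difference from control was -0.30 at 8 weeks, 0.57 at 16 weeks (SE 0.27, limma, adjusted p = 0.259) and -0.05 at 24 weeks. Without the fourth control array it was 0.85 at 16 weeks (adjusted p = 0.0586) and 0.23 at 24 weeks, where the direction turned. Without the second 16-week array the Comp difference at 16 weeks was 0.24 (adjusted p = 0.622). Between 16 and 8 weeks it was 0.87 (adjusted p = 0.490), and between 24 and 16 weeks -0.63 (adjusted p = 0.612), and without the second 16-week array these were 0.54 and -0.29 (adjusted p = 0.713 and 0.826). All 24-week arrays also lay above all 8-week arrays, by 0.25 (adjusted p = 0.930), a separation upward that 1.33% of all probe sets showed. The separation downward between 24 and 16 weeks was shown by 1.39% of all probe sets.

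Over the 16 arrays, Fmod and Comp had a Pearson r of 0.79 and a Spearman rho of 0.28. Without the arrays farthest from the median of Fmod, the second at 16 weeks and the fourth control, r was -0.07 and rho -0.08 over 14 arrays. The relation thus rests on those arrays. With group means removed, this pair had the highest r of the 28 pairs of members (0.84), next to that of Bgn and Prelp (0.84), and the median over pairs was 0.60. The 2 arrays had the highest atrial marker means of their groups, 4.15 and 2.71. The third 24-week array (5.60) and the second 8-week array (5.06) had higher atrial means than both. Comp was -1.78 and -2.11 on these, and Fmod 1.10 and 0.38. The fourth 8-week array had an atrial mean of 3.41, with Comp at -2.10 and Fmod at 0.31. A part of atrial tissue in the values of Fmod and Comp was not tested. Valve and cartilage markers (Col2a1, Acan, Chad and Hapln1) were all below the array median in every group, and their mean was -1.17 on the fourth control and -1.03 on the second 16-week array, in ranges of -1.18 to -1.08 in control and -1.53 to -1.03 at 16 weeks. Atrial marker level as a covariate left the 16-week calls of Dcn and Vcan in place and added Bgn (0.75, adjusted p = 0.0476).

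**Figure D3:**
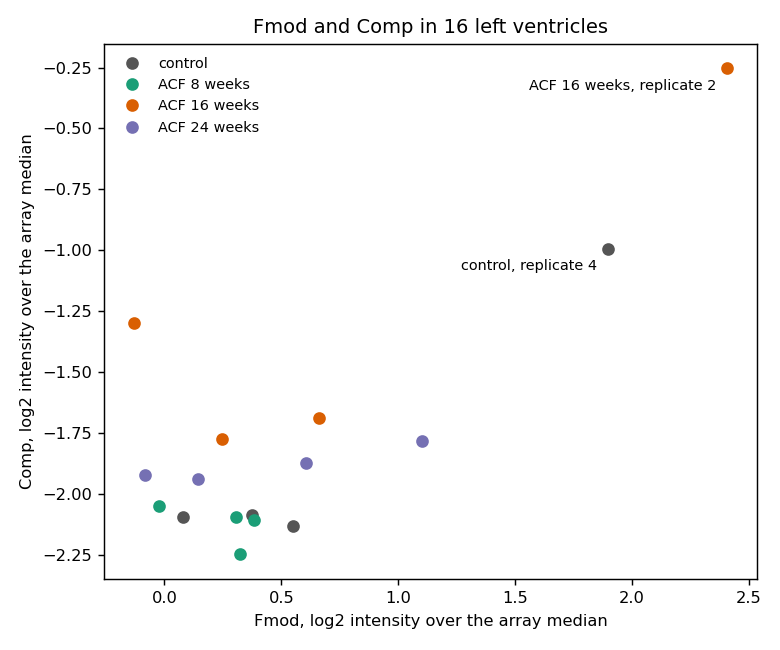
Comp against Fmod, both as log2 intensity over the array median, in the 16 arrays coloured by group. The fourth control array (1.90, -0.99) and the second 16-week array (2.41, -0.25) lie apart at the upper right, and the other 14 show no common slope.

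Promoter sequence was taken from RefSeq (build GRCr8) for Fmod and Comp, since they were highest on the same arrays, and for Vcan, which had the largest change. Of the 8 genes, 5 had an entry: Lum, Fmod, Ogn, Vcan and Comp. Each run covers the 250 bases before the transcription start, 5′ to 3′ on the strand of the gene, at chr13:48045317-48045566 (plus strand) for Fmod, chr16:19089549-19089798 (minus strand) for Comp and chr2:22595956-22596205 (minus strand) for Vcan. Capitals mark CAGAC or GTCTG, the core of the box bound by SMAD factors of the TGF-beta pathway on either strand, and GGGCGG or CCGCCC, the GC box.
Fmod: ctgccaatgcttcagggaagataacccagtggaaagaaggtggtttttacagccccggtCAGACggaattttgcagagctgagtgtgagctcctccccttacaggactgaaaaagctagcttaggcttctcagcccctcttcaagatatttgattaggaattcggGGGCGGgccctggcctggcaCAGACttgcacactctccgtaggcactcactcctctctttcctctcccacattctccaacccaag
Comp: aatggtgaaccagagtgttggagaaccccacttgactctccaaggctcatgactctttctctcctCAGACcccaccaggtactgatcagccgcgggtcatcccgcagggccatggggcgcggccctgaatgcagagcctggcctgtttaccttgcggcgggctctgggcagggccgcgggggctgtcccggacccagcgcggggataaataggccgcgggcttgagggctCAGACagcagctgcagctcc
Vcan: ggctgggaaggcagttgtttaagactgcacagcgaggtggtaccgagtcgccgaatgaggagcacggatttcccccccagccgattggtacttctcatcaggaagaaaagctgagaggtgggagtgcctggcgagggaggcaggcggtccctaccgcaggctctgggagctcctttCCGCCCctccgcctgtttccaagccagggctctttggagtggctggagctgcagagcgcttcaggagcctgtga
Fmod and Comp each held 2 SMAD boxes, Lum 3 and Ogn 1, while none was found in the Vcan window. At least 1 such box occurred in 42.9% of 33469 rat promoter windows of this length. Fmod and Vcan held 1 GC box each, found in 30.5% of all windows. Neither TATAAA (12.9% of windows) nor the AP-1 motif TGANTCA (6.34%) occurred in any of these 3 windows, on either strand. Vcan has a second annotated start, whose window (chr2:22595858-22596107) overlaps the one shown. It too held 1 GC box and no SMAD box, TATAAA or AP-1 motif. A match is a description of the letters and not a binding site.

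Versican was measured by 5 probe sets, and 4 of them passed at 16 weeks. The brightest (1388054_a_at) gave 0.16, 0.08, 0.10 and 0.73 in control arrays and 0.55, 1.12, 1.21 and 0.91 at 8 weeks. At 16 weeks the values were 2.43, 2.14, 1.61 and 1.26, and at 24 weeks 0.88, 2.02, 1.61 and 0.67. All 16-week arrays lay above all controls and above all 8-week arrays, separations upward that 7.65% and 2.26% of all probe sets showed. At 8 and at 24 weeks 3 of 4 arrays lay above all controls. Vcan differed from control by 0.68 at 8 weeks (SE 0.28, limma, adjusted p = 0.710), 1.59 at 16 weeks (adjusted p = 0.00400) and 1.03 at 24 weeks (adjusted p = 0.0958). Without the fourth control array it was 1.75 at 16 weeks (adjusted p = 0.00416), and on the arrays of the higher level alone 2.02 (adjusted p = 0.000626). In order of level the groups ran control, 8, 24 and 16 weeks. The step from control to 8 weeks, 0.68, had a 95% interval of 0.09 to 1.27 but did not pass over all probe sets. The steps from 8 to 24 weeks (0.35, adjusted p = 0.894) and between 24 and 16 weeks (-0.56, adjusted p = 0.654) did not pass either. The difference between 16 and 8 weeks, which are not neighbours in this order, was 0.91 (adjusted p = 0.479).

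All other Vcan probe sets but 1371233_at also passed at 16 weeks. At 16 weeks 1371232_a_at gave 2.48, 2.07, 1.54 and 1.31 against 0.20, -0.11, 0.18 and 0.56 in control, a difference of 1.64 (limma, adjusted p = 0.00181). It followed the brightest probe set closely, with r = 0.99 over 16 arrays. The differences at 16 weeks were 1.60 for 1388142_at (adjusted p = 0.0114) and 0.82 for 1388265_x_at (adjusted p = 0.00640). The group means of 1388265_x_at all lay below the array median, from -1.87 in control to -1.05 at 16 weeks. With 1371232_a_at and 1388265_x_at all 8-week arrays lay above all controls, by 0.71 and 0.31 (adjusted p = 0.581 and 0.834), a separation upward that 2.74% of all probe sets showed. At 24 weeks all 1371232_a_at values also lay above all controls, by 1.13 (adjusted p = 0.0610), a separation upward that 4.32% of all probe sets showed. The fifth, 1371233_at, lay between -2.63 and -2.01 on all arrays and did not follow the others (r from -0.03 to 0.16). Its difference was 0.06 at 16 weeks (adjusted p = 0.840). At 24 weeks it was 0.35 with all arrays above all controls (adjusted p = 0.146), again beside 4.32% of all probe sets, and 0.15 without centring. The files do not say which Vcan transcripts each probe set detects.

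**Figure D4:**
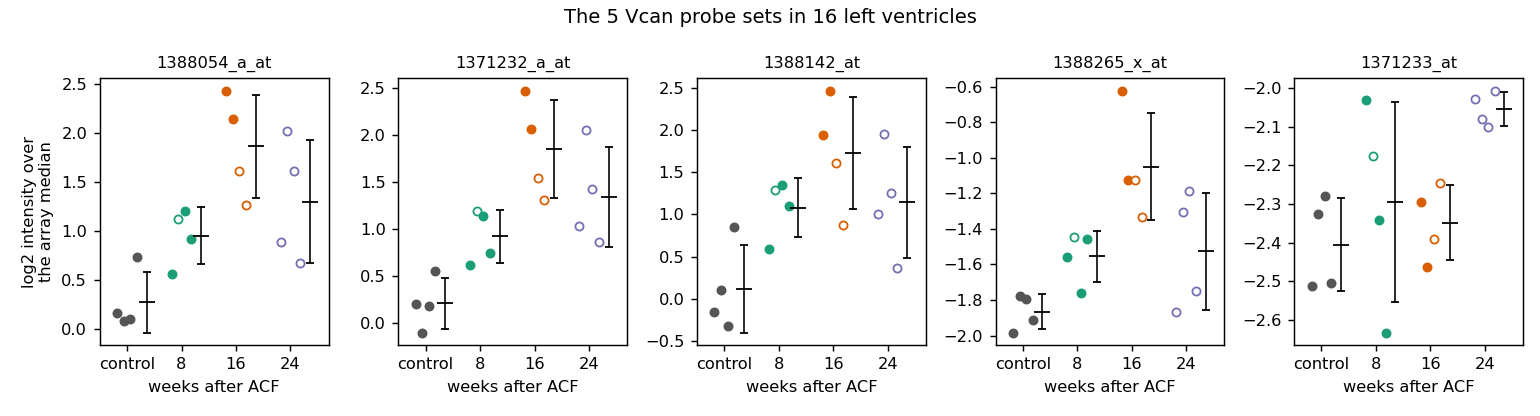
The 5 Vcan probe sets in every array as log2 intensity over the array median, by weeks after ACF, each with its own axis. Circles are filled for arrays at the higher level, and bars are mean and SD of 4 arrays. The mean of 1371233_at is highest at 24 weeks, and those of the other 4 at 16 weeks.

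Osteoglycin, a class III member also called mimecan, was measured by 4 probe sets that did not move together. In 1376749_at the control arrays gave 3.31, 4.65, 4.44 and 3.13, those at 8 weeks 3.97, 3.91, 4.39 and 3.39, those at 16 weeks 3.19, 2.92, 3.29 and 3.31, and those at 24 weeks 5.03, 4.55, 4.25 and 2.80. The 16-week arrays were close together and all below the 8-week arrays, while control and 24-week arrays spread widely. The difference between 16 and 8 weeks was -0.74 (limma, adjusted p = 0.759), and 1.47% of all probe sets separated downward in this way. A second probe set, 1383263_at, had the same pattern (r = 0.98 over 16 arrays, -0.71 between 16 and 8 weeks, adjusted p = 0.734).

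The brightest Ogn probe set, 1385248_a_at, ran against these, with r = -0.56 and -0.60. Its control values were 4.82, 4.49, 4.02 and 4.55, those at 8 weeks 4.05, 3.97, 4.19 and 4.58, those at 16 weeks 4.30, 4.14, 4.61 and 4.44, and those at 24 weeks 3.69, 3.03, 4.09 and 4.18. Of the 24-week arrays 2 lay below all controls. The difference from control was -0.72 at 24 weeks (SE 0.22, limma, adjusted p = 0.130), and without centring it was -0.93 and passed (adjusted p = 0.0240). The fourth, 1390450_a_at, differed from control by -0.22, -0.29 and -0.28 at 8, 16 and 24 weeks (adjusted p = 0.905, 0.227 and 0.304). Without centring its difference at 24 weeks was -0.49 and passed (adjusted p = 0.0339). No direction for Ogn as a gene can be read from the 4 probe sets. In the rat annotation Ogn overlaps another gene, Cenpp, and which transcripts the probe sets detect was not tested.

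**Figure D5:**
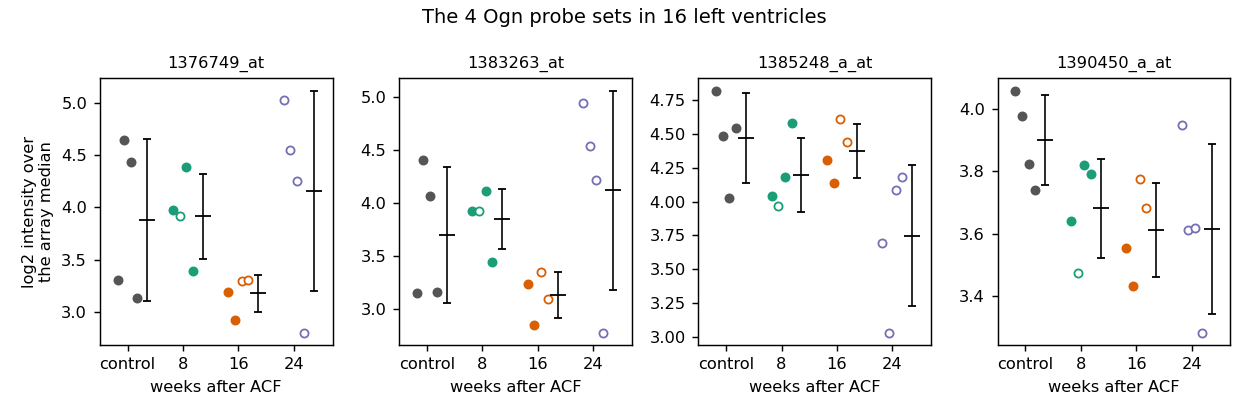
The 4 Ogn probe sets in every array as log2 intensity over the array median, by weeks after ACF, each with its own axis. Circles are filled for arrays at the higher level, and bars are mean and SD of 4 arrays. In the first pair of panels the 16-week arrays lie together below the 8-week arrays, and in the third the 24-week mean is the lowest.

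Several members lie beside other proteoglycan genes in the rat genome. Dcn and Lum are neighbours, with Kera and Epyc next to them, Prelp lies between Optc and Fmod, Ogn is followed by Omd and Aspn, and Vcan is next to the link protein gene Hapln1. Omd differed from control by 0.51, 0.36 and 0.63 at 8, 16 and 24 weeks (limma, adjusted p = 0.432, 0.193 and 0.0727), and Aspn by 0.61, 0.53 and 0.65 (adjusted p = 0.373, 0.0867 and 0.0902). Neither passed, and their differences lay above 0 at all 3 times. The brightest Ogn probe set was at -0.27, -0.10 and -0.72, and 1390450_a_at also lay below 0 at each time. However, 1376749_at was at 0.03, -0.71 and 0.28, and 1383263_at at 0.15, -0.56 and 0.42. Since the Ogn probe sets differ in direction, no contrast of Ogn with Omd and Aspn can be read. Optc and Hapln1 were below the array median on average and differed from control by between -0.20 and 0.15.

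Other genes of proteoglycan biology were counted in lists, each gene by its brightest probe set. Of all probe sets 0.0322%, 5.47% and 0.438% passed in either direction at 8, 16 and 24 weeks, and 3.62% upward at 16 weeks. These shares, here and for the lists below, cover dim and unnamed probe sets too. When each gene was tested by 1 probe set, 8, 1292 and 129 of 14217 genes passed in either direction at these times. Among 9 other measured small leucine-rich proteoglycans, 1 rose at 16 weeks, Ecm2, by 0.47 (limma, adjusted p = 0.0268), with a list median of 0.15. Of 10 other matrix proteoglycans none passed at any time, including perlecan (Hspg2), which differed by less than 0.1 at each time, and aggrecan (Acan), at -0.37 at 24 weeks (adjusted p = 0.281). None of 11 cell-surface proteoglycans passed: the smallest p at 16 weeks was that of syndecan-2 (Sdc2, 0.41, adjusted p = 0.0657), and at 8 weeks that of Gpc6 (0.45, adjusted p = 0.370).

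Some genes that build the sugar chains passed at 16 weeks, when 3.62% of all probe sets passed upward. Of 21 measured genes of chondroitin and dermatan sulfate synthesis 3 rose and none fell, with a list median of 0.13. Ugdh, which makes the UDP-glucuronic acid used for these chains, rose by 0.88 (limma, adjusted p = 0.0180), Csgalnact2, which starts chondroitin chains, by 0.68 (adjusted p = 0.00621), and Dsel, an epimerase-like gene of dermatan sulfate, by 0.61 (adjusted p = 0.0353). Of 9 genes of keratan sulfate synthesis B4galt1, a galactosyltransferase, rose by 0.76 (adjusted p = 0.00690) and the sialyltransferase gene St3gal2 by 0.67 (adjusted p = 0.0372). Of the proteoglycan lists counted here, only B4galt1 passed at 24 weeks, by 0.75 (adjusted p = 0.0359). This 24-week call was lost in 6 of the 16 fits without 1 array, with array level as a block and with the atrial covariate. As the mean of its probe sets, B4galt1 differed by 0.20 at 16 weeks and 0.21 at 24 weeks and did not pass (adjusted p = 0.205 and 0.280).

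Hyaluronan, the chain to which versican binds, is made by hyaluronan synthases at the cell surface. Of 8 measured genes for hyaluronan and its link proteins, 2 rose at 16 weeks: Has2, by 0.69 (limma, adjusted p = 0.0262), and Tnfaip6, whose product modifies hyaluronan in inflammation, by 1.27 (adjusted p = 0.00858). Tnfaip6 was at 1.16 at 8 weeks and 1.04 at 24 weeks without passing (adjusted p = 0.139 and 0.0727). Of 8 measured proteases that cut proteoglycans, Adamts4 rose by 0.87 at 16 weeks (adjusted p = 0.00331) and was at 0.02 at 24 weeks, and the list median at 16 weeks was 0.52. Adamts1 and Adamts5 did not pass, at 0.23 and 0.62 (adjusted p = 0.833 and 0.117).

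Thbs4, a close relative of Comp in the thrombospondin family, had the largest difference at 16 weeks in these proteoglycan lists. It rose by 2.94 at 16 weeks (SE 0.59, limma, adjusted p = 0.00858) and was at 1.67 and 2.31 at 8 and 24 weeks without passing (adjusted p = 0.557 and 0.0794). It was 1 of 5 measured thrombospondins and matrilins to pass. Of 13 genes for receptors and ligands bound by small leucine-rich proteoglycans, 5 rose at 16 weeks and none fell, with a list median of 0.37. Of all probe sets 3.62% passed upward at this time. They included Cd14 (1.67, adjusted p = 0.00296) and Tlr2 (1.23, adjusted p = 0.0130), which are among the receptors for soluble biglycan on macrophages. Tlr4, another toll-like receptor gene of this list, did not pass. The others that rose were Tgfb2 (0.98, adjusted p = 0.0164), whose product decorin binds, Lrp1 (0.74, adjusted p = 0.0255) and Egfr (0.82, adjusted p = 0.0269). Tgfb1 was at -0.03 (adjusted p = 0.944). Of the 16 calls in these lists, 7 held in every fit that left out 1 array. Up to 8 were lost without the first or the second control array, and the highest adjusted p was 0.143. Without centring 7 of the 16 were lost, those of Ecm2, Dsel, Ugdh, St3gal2, Has2, Egfr and Lrp1, and with the methods' t-test after adjustment all 16 were. With all probe sets of each gene averaged, the calls of St3gal2 (0.39), Egfr (0.46) and Lrp1 (0.33) were lost as well as both of B4galt1, while Tnfaip6 was at 0.65 and Tgfb2 at 1.53 and both passed.

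Some markers of cells that make or surround matrix were also higher at 16 weeks. Over all probe sets 3.62% passed upward at that time, and 0.0322% and 0.438% passed in either direction at 8 and 24 weeks. Tested by 1 probe set per gene, 8, 1292 and 129 of 14217 genes passed in either direction at 8, 16 and 24 weeks. Of 7 macrophage markers, 6 rose at 16 weeks, 1 at 8 and 4 at 24 weeks, and their summed level, as a mean, ranged from 1.05 to 1.41 in control, 1.93 to 2.28 at 8 weeks, 2.15 to 2.86 at 16 weeks and 1.73 to 2.32 at 24 weeks. Of 7 cardiac fibroblast markers 3 rose at 16 weeks, Pi16, Scara5 and Thy1, while Pdgfra was at 0.18 and Tcf21 at -0.25 (limma, adjusted p = 0.619 and 0.348). The fibroblast mean ranged from 1.86 to 2.33 in control, 2.14 to 2.87 at 8 weeks, 2.50 to 2.72 at 16 weeks and 2.34 to 2.86 at 24 weeks. Of 5 activated fibroblast markers 1 rose at 16 weeks, periostin (Postn), by 4.28 (adjusted p = 0.000516), and it passed at 24 weeks too, by 2.66 (adjusted p = 0.0386). The mean of the 5 ranged from 0.53 to 1.42 in control and from 1.31 to 2.30 at 16 weeks, but this follows mostly from Postn, since the median difference of the list was 0.12. Of 4 measured endothelial markers Vwf (von Willebrand factor) rose by 1.31 at 16 weeks and 1.19 at 24 weeks (adjusted p = 0.00182 and 0.0251). The endothelial mean ranged from 3.67 to 4.04 in control, 3.71 to 4.16 at 8 weeks, 4.11 to 4.40 at 16 weeks and 4.08 to 4.42 at 24 weeks. None of 4 smooth muscle and pericyte markers passed, with a median difference of 0.02 at 16 weeks, nor did any of 2 measured epicardial or 3 adipocyte markers. The part of these cells in the differences of Vcan and Dcn was not tested.

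The genes with a profile most like the mean of the 8 members over the 16 arrays were Inhba (r = 0.91), Ifitm3 (0.90), Cp (0.89), Map1b (0.89) and Rai14 (0.88), of 9407 candidates. These r values are a description: all points share arrays, and the fourth control is high in the members. Inhba, which encodes an activin subunit, differed from control by 1.34 at 16 weeks without passing (limma, adjusted p = 0.0711). Of the 5, Ifitm3, Map1b and Rai14 rose at 16 weeks, by 0.49, 0.85 and 0.71 (adjusted p = 0.0271, 0.0190 and 0.0326), and Cp was at 0.82 (adjusted p = 0.137). Since all 5 were picked for likeness to the members, whose mean was highest at 16 weeks, these differences are not separate results.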

How the data were processed

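RNA of 16 samples of whole LV, taken as 16 rats, was hybridised to 1 array each. The authors deposited summarised log2 values, obtained with Expression Console 1.2 of Affymetrix using RMA, which corrects background, normalises by quantiles and takes 1 value for each probe set. The table holds 31099 probe sets, of which 57 manufacturer controls were left out. The probe set identifiers are those of a 3′ expression array of the rat, while the methods name a Gene ST array. Symbols came from the platform annotation: 20826 probe sets had 1 symbol, 436 several and 9780 none, and for all 15 probe sets of the members the gene ID gave the same symbol in the current rat table. No raw intensities were processed, and the number of arrays limits the precision.

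Each array was centred on its median. In limma 3.58.1 (R 4.3.3), all probe sets of the 16 arrays were fitted with a mean for each of the 4 groups, with Benjamini-Hochberg adjustment over 31042 probe sets per comparison and a threshold of 0.05. Dim probe sets were kept. A gene was counted by its brightest probe set. For paralog pairs, exact two-sided permutation tests of 4 against 4 arrays were used, whose smallest p is 0.0286. Nothing in the labels says more on the origin of replicates than that they are separate samples, so p values measure the spread between these. The script was tested on simulated data. All probe sets of the members are reported. Of each list, the text names up to 4 called genes with the smallest adjusted p per comparison, or else the gene with the smallest p; Egfr, the fifth receptor, and other uncalled genes with values were named after their values were seen. Members and lists were chosen with earlier results of these data known. Alternatives were no centring, array level as a block, arrays of 1 level, cyclic loess, variance trend with robust prior, array weights, a replicate block, only the arrays compared, the methods' t-test, the upper 50% of probe sets, 1 probe set or the mean of all probe sets per gene, each array left out, and, added after seeing the data, the atrial marker level as a covariate.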

Additional observations from a re-analysis of the deposited data

Results flagged for a closer look

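In 68 groups of 4 arrays, 3 had 1 array whose gap to the nearest other exceeded the limit for a single outlying value, where chance gives about 1 in 20. All 3 were the fourth control array. Its Dcn value (1370956_at) was 6.80, and the other controls lay between 6.57 and 6.60. For Vcan (1388054_a_at) it was 0.73 beside 0.08 to 0.16, and for Comp (1387137_at) -0.99 beside -2.13 to -2.09. Without this array 3 members, Bgn, Dcn and Vcan, were higher at 16 weeks. Of all 31042 probe sets 1394 passed then, 875 higher and 519 lower.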

How the results depend on the processing

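The 16-week calls of Vcan and Dcn held in each of the 16 fits without 1 array (2 to 3 members called, Bgn being the third). The fits without an 8-week or a 24-week array keep these differences as they were, and change only the estimate of the spread. Without centring 1 member was called at 16 weeks (Vcan), and with the methods' t-test after adjustment 0. At 24 weeks 1 member was called without centring (Ogn, lower) and 4 with array weights (Bgn, Dcn and Vcan higher, Ogn lower). Leaving out single arrays gave 0 to 3 at 24 weeks, the 3 being Bgn, Ogn and Vcan without the fourth 24-week array. At a fold over 1.5 and unadjusted p, the methods' t-test called 1 member at 8 weeks (Vcan) and 1 at 24 weeks (Vcan). At 16 weeks this setting kept Vcan, gained Bgn (0.74) and lost Dcn, whose 1.41-fold difference lies under 1.5. Between 16 and 8 weeks this setting called 2 (Vcan and Comp), and arrays of the higher level alone called 1 (Vcan). Counts over all probe sets ranged from 1 to 308 at 8 weeks (10 in the text), 88 to 2405 at 16 weeks (1698), 0 to 3839 at 24 weeks (136), 0 to 224 between 16 and 8 weeks (0), 0 to 165 between 24 and 16 weeks (4) and 0 to 67 between 24 and 8 weeks (0). At 16 weeks the methods' t-test after adjustment gave 88 and arrays left out 743 (without the first control) to 2103 (without the fourth 16-week array). At 24 weeks array level as a block gave 4, no centring 3839 and array weights 866, and arrays left out 4 (without the second control) to 873 (without the fourth 24-week array). The change of Fmod minus Lum ranged from -0.79 (without the second control array, exact permutation p = 0.0286 before adjustment) to -0.33 at 8 weeks and from -0.56 to 0.18 at 16 weeks over arrays left out. Differences near 0 turned sign. Without centring they were -0.021 for Ogn (1376749_at) and -0.0027 for Prelp at 8 weeks, and -0.047 for Fmod and -0.061 for Vcan 1371233_at at 16 weeks. With array level as a block they were -0.0042 for Ogn (1376749_at) at 8 weeks, -0.0078 for Vcan 1371233_at at 16 weeks, and 0.032 for Fmod and 0.49 for Comp at 24 weeks. Prelp at 8 weeks was -0.014 on arrays of the higher level and -0.032 with atrial marker level as a covariate, Comp at 24 weeks was 0.031 with array weights, and Ogn between 24 and 16 weeks was 0.34 as the mean of its probe sets. Leaving out arrays also turned Ogn 1376749_at (-0.22 to 0.29) and 1383263_at (-0.031 to 0.39) and Prelp (-0.036 to 0.23) at 8 weeks, Fmod (-0.47 to 0.46) and Ogn 1385248_a_at (-0.24 to 0.022) at 16 weeks, and Fmod (-0.50 to 0.11), Ogn 1376749_at (-0.014 to 0.73) and Comp (-0.15 to 0.23) at 24 weeks. Of 1716 recomputed values of the members, 1649 kept direction and side of the threshold. Most of these comparisons were not called to begin with. Leaving out an array of a group not compared kept the difference as it was and changed only the estimate of the spread. The cause of the changes of direction and of calls was not tested. Arrays of the same number did not deviate together (24 pairs, r from -0.27 to 0.24, and in 5 of the 24 the array correlated best with its own number), and a replicate block called the same 2 members at 16 weeks, Vcan (1.59, adjusted p = 0.00635) and Dcn (adjusted p = 0.0173), and 1, 1740 and 134 of all probe sets at 8, 16 and 24 weeks. Neither level held both 24-week and control arrays, so that comparison was not run within a level.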
